A study of Mus musculus with 31 samples.

Results

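Chromatin accessibility was followed at 3 genes, Lef1, Tcf7 and Satb1, in mouse spleen regulatory T cells (Tregs) after injection of interleukin-2. The members were all ATAC-seq peaks whose gene list in the authors' peak name held one of the 3 genes. This gave 38 of 104979 peaks, 18 for Lef1, 6 for Tcf7 and 14 for Satb1. ATAC-seq cuts open chromatin with the Tn5 transposase, so the count in a peak rises with how open that stretch of DNA is. All mice were RFP-FoxP3+ reporter animals on the C57BL/6 (BL6) background, and the Tregs were sorted from spleen. One set of mice received 5 µg of mouse IL-2 (mIL-2, labelled IL2 below), another 20 µg of mIL-2/CD25, a protein that joins IL-2 to a chain of its own receptor (FP), and the controls 100 µL of PBS. IL2 and FP therefore differed in both the protein and the mass injected. Libraries were made 0.75 h and 16 h after injection for PBS, IL2 and FP (n = 3 in each of these 6 groups), at 72 h for PBS and FP (n = 3 each), and at 168 h for PBS (n = 3) and FP (n = 4), 31 libraries in all. The times after 0.75 h rest on the sample titles, since the treatment protocol gives 0.75 h for every sample. Age and sex of the mice were not given in the sources used here, and no label states whether a group's libraries came from different animals, so p-values measure the spread between libraries.

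Lef1 and Tcf7 encode LEF1 and TCF1, related DNA-binding proteins of the TCF/LEF family. They bind beta-catenin and repressor proteins, act at the end of the WNT pathway, and are high in naive and memory T cells and low in many effector cells. Satb1 encodes a chromatin organiser that is abundant in thymocytes and is kept low in mature Tregs by FOXP3. IL-2 acts through its receptor on the kinases JAK1 and JAK3 and the factor STAT5, which as a dimer binds the GAS motif, TTCNNNGAA. Tregs carry CD25, the alpha chain of that receptor, at high level and respond to little IL-2.

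The only member peak that passed the test against PBS at any time lies in an intron of Lef1, at chr3:131148829-131149481 (GRCm38/mm10), and its central sequence is shown first. The peak is 653 bases wide, its centre is 38.7 kb downstream of the 5′ start of Lef1, and the GENCODE M21 annotation places it wholly in intron, 34973 bases from the nearest Lef1 transcription start. GC made up 37.8% of its bases, the lowest value among the 19 intronic peaks of the 3 genes. The 300 bases on the plus strand at chr3:131148993-131149292 read as follows, with capitals marking the single GAS match, TTCAAAGAA, whose centre is 13 bases from the centre of the peak.
Lef1 intron, 38.7 kb: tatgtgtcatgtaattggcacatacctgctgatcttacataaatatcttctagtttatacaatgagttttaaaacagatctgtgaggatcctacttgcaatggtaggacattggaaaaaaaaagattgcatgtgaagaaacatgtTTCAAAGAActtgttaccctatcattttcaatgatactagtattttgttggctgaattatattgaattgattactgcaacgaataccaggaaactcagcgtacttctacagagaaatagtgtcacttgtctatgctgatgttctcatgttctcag
The first 7 bases of that match, TTCAAAG, are also a TCF/LEF match (CTTTGAA on the other strand), so these motifs overlap at this place. Neither match shows that a factor was bound.

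Of the 38 member peaks, 4 held the GAS motif and all 4 were Lef1 peaks. None of the 6 Tcf7 peaks and none of the 14 Satb1 peaks held one. The other 3 are shown with 10 bases on each side, plus strand, GAS match in capitals, for comparison with the first, the only one that passed the test.
Lef1 intron, 38.7 kb, chr3:131149128-131149156: agaaacatgtTTCAAAGAActtgttaccc
Lef1 exon, 46.1 kb, chr3:131156459-131156487: ttttcacttcTTCAGAGAAgaggatgcaa
Lef1 exon, 80.5 kb, chr3:131190674-131190702: actaagctgcTTCTCTGAAgggatagttt
Lef1 intron, 85.0 kb, chr3:131195459-131195487: agctctgagaTTCTAAGAAcattctaagc
None of the 4 matches the stricter form TTCCNGGAA, which 1.87% of all peaks held. TTCNNNGAA occurred in 13.3% of all 104979 peaks and in 21.2% of the 13757 peaks within 15% of the width of the 38.7 kb peak.

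Library totals over all peaks ran from 7385040 to 59647438 counts, and 1 peak took 14.98 to 32.2% of the counts of a library. The promoter peaks of 7 T-cell genes averaged 3.02 to 8.49 CPM (the count scaled to the library's effective total, its total times the TMM factor that edgeR estimates for composition) per peak over the libraries, and those of 7 Treg genes, Foxp3 and Il2ra among them, 6.91 to 13.6. The single promoter peak found for 4 NK-cell genes stayed at or below 1.57 CPM, and the 3 promoter peaks found for 6 B-cell genes lay between 1.34 and 4.46 CPM. The libraries PBS replicate 1 and FP replicate 2 of 168 h stood apart from the rest in their profile over peaks, with 7385040 and 12316912 counts. Some values at 168 h are therefore also given without them, or as the range when 1 library at a time was left out.

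At 0.75 h the Lef1 peak at 38.7 kb was high in all 3 IL2 libraries and low in all 3 PBS libraries. The IL2 libraries had 7.51, 8.08 and 7.38 CPM. The PBS libraries had 0.87, 1.41 and 0.30 CPM, and the groups did not overlap, as for 6.21% of tested peaks with IL2 above PBS. In counts, the IL2 libraries held 174 to 196 and the PBS libraries 6 to 28. The log2 fold change was 3.15 ± 0.46 (SE; 95% interval 2.20 to 4.11), with an adjusted p of 0.00290 in edgeR's quasi-likelihood test with Benjamini-Hochberg adjustment over 100468 peaks. It was called in each of the 9 fits that left out 1 library, with log2 fold changes of 2.76 to 3.70. Same-numbered IL2 and PBS libraries deviated together at this time, and with the replicate number as a block the log2 fold change was 3.27 (adjusted p = 9.95e-05, edgeR), with 941 rises and 42 falls over all peaks. Without the block, over all tested peaks 490 rose, which is 0.488%, and 9 fell, which is 0.00896%. Among those 490 the Lef1 peak ranked 16th by fold change and 60th by p, above the median log2 fold change of 1.78. The promoter levels of the T-cell, Treg, B-cell, CD8 T-cell, NK-cell, myeloid and erythroid genes overlapped between the IL2 and PBS libraries at this time. Over all peaks near the marker genes, 19 of 23 erythroid peaks lay below 0 with IL2 (median -0.67, 1 called as a rise). An unadjusted p under 0.05 was found for 6 of the 23, beside 5765 of 100468 tested peaks. Of 19 CD8 T-cell peaks, 17 also lay below 0 (median -0.49, none called). Of the erythroid peaks, 16 lie within 1 kb at a single globin gene, and all 16 were below 0. In FP minus IL2, 17 of the 23 erythroid peaks had FP above IL2 without overlap, beside 4489 of 100468 tested peaks. All 16 of that region were among the 17, and the median of the 23 was 1.26. The part of these cells in the results was not tested. A bulk measurement of this kind cannot tell a larger share of cells with the site open from a wider opening in each cell.

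FP at the same time gave an intermediate level. Its libraries had 4.46, 4.08 and 2.76 CPM, above all 3 PBS libraries and below all 3 IL2 libraries. FP lay above PBS without overlap in 4.62% of tested peaks and below IL2 in 4.86%. Against PBS the log2 fold change was 2.14 ± 0.45 (95% interval 1.20 to 3.08), with an adjusted p of 0.212 by edgeR, so the peak did not pass. It passed with DESeq2 (adjusted p = 0.00179), a test that called 213 rises over all peaks where edgeR called 2, which is 0.00199% of tested peaks. It also passed in edgeR with the replicate number as a block (2.21, adjusted p = 0.0280), which called 127 rises. The call for FP at 0.75 h thus differed between these tests. The direct difference, FP minus IL2, was -1.01 ± 0.41 with an adjusted p of 1.00 by edgeR, and its interval ran from -1.87 to -0.16. IL2 and FP were compared with the same PBS libraries, so their 2 fold changes are not independent.

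At 16 h the order of the agents was the other way round. The FP libraries had 5.17, 4.58 and 4.83 CPM. The IL2 libraries had 0.81, 2.54 and 1.96 CPM, and the PBS libraries 2.23, 0.14 and 1.12. FP lay above both other groups without overlap, while IL2 and PBS overlapped. Over tested peaks FP stood above PBS in this way in 6.89% and above IL2 in 5.65%. The log2 fold change for FP was 2.01 ± 0.57 (adjusted p = 0.313, edgeR; 95% interval 0.83 to 3.18), and leaving out 1 library took it from 1.53, without the PBS library at 0.14 CPM, to 2.88, without that at 2.23 CPM. With the library total as a covariate it was 1.5. For IL2 it was 0.56 ± 0.57 (adjusted p = 1.00, edgeR; interval -0.61 to 1.72), and without the same 2 PBS libraries it was 0.077 and 1.43. FP minus IL2 was 1.45 ± 0.55, with an adjusted p of 0.740 by edgeR. None of these passed, so the level at 16 h is a description. The promoter peaks of the B-cell genes, found for 3 of 6, also ran higher in the FP libraries at this time (2.50 to 4.27 CPM per peak) than in PBS (1.65 to 2.29). Over all 10 tested peaks near the B-cell genes, 5 lay above 0 and 5 below (median 0.06). Near the CD8 T-cell genes 19 of 19 tested peaks lay below 0 with FP (median -0.20). Above 0 were 12 of 15 NK-cell peaks (median 0.56), 8 of 14 myeloid peaks (median 0.63) and 19 of 23 erythroid peaks (median 0.05). An unadjusted p under 0.05 was found for 5 of the myeloid, 2 of the NK-cell and 2 of the B-cell peaks. For the CD8 T-cell and the erythroid peaks it was 1 each, beside 5350 of 100771 tested peaks. None of these peaks was called against PBS. In FP minus IL2 at 16 h, 19 of the 23 erythroid peaks lay above 0 (median 0.41), with 1 called. The part of these cells in the result was not tested.

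At 72 h FP and PBS overlapped. FP libraries had 1.59, 2.03 and 1.85 CPM and PBS libraries 1.78, 1.02 and 1.93. At 168 h the FP libraries had 1.00, 0.52, 1.00 and 0.81 CPM. The PBS libraries of 168 h had 0.00, 1.23 and 0.47 CPM. The library at 0 was the shallowest of the series, and its depth allows up to 0.419 CPM at 3 counts. The log2 fold changes were 0.17 ± 0.35 at 72 h (interval -0.61 to 0.96) and 0.48 ± 0.84 at 168 h (interval -1.36 to 2.32, and -0.0016 without PBS replicate 1).

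The change of these effects with time was tested in a fit over all 31 libraries. The IL2 effect at 16 h minus that at 0.75 h was -2.59 ± 0.82 for the Lef1 peak, with an adjusted p of 0.481 by edgeR, in a test that called 43 of 104520 peaks, or 0.0411%. The FP effect differed by -0.12 ± 0.80 between the same times, and by -1.81 ± 0.80 from 16 h to 72 h (adjusted p = 1.00, edgeR), a test that called 0.000957% of peaks. The difference between FP and IL2 moved by 2.47 ± 0.78 from 0.75 h to 16 h (adjusted p = 0.401, edgeR), a contrast chosen after the levels had been seen, in which 0.195% of peaks were called. No difference between times passed for the Lef1 peak. The other peaks that rose with IL2 at 0.75 h had medians of 1.10 for FP at 0.75 h, 0.04 for IL2 at 16 h, 1.14 for FP at 16 h, 0.43 for FP at 72 h and -0.01 for FP at 168 h.

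Ordered by mean, the groups ran from IL2 at 0.75 h (7.66 ± 0.37 CPM, SD, n = 3) through FP at 16 h (4.86 ± 0.29, n = 3) and FP at 0.75 h (3.77 ± 0.89, n = 3) to FP at 72 h (1.82 ± 0.22, n = 3). Each of these neighbours was separated from the next without overlap. From FP at 72 h downwards each group overlapped the next, ending with PBS at 168 h (0.57 ± 0.62 CPM, n = 3). Within Lef1 the shift was also visible as a share. The 38.7 kb peak held 7.81 ± 0.16% of all Lef1 peak counts in IL2 libraries at 0.75 h, 4.06 ± 0.21% with FP and 0.87 ± 0.48% with PBS (SD, n = 3 each).

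**Figure D1:**
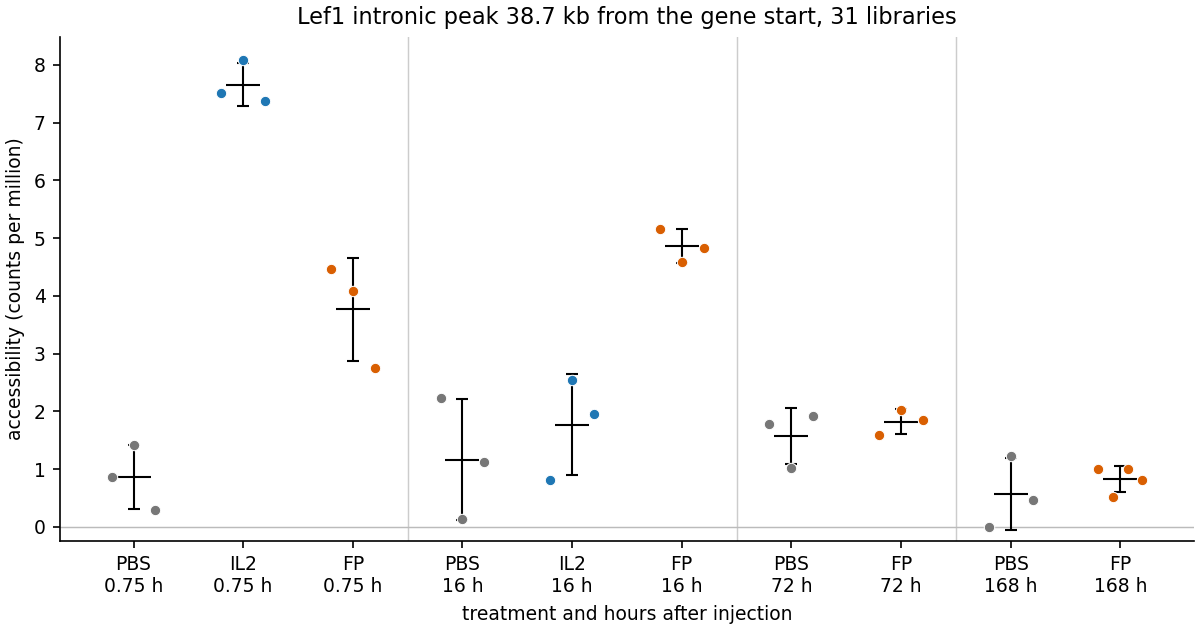
Accessibility of the Lef1 intronic peak 38.7 kb from the gene start, in CPM, for each of the 31 libraries by treatment and hours after injection (points), with the group mean and SD (black). The 3 IL2 libraries at 0.75 h lie between 7.38 and 8.08, FP at 16 h between 4.58 and 5.17, and all PBS libraries at or below 2.23.

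The rest of Lef1 did not follow this peak. Of its 18 peaks, 7 had a log2 fold change above 0 and 11 below 0 with IL2 at 0.75 h, and the median was -0.12, close to the median of -0.02 over all tested peaks. The nearest Lef1 peaks on either side, at 29.3 kb and 43.6 kb, had -0.12 ± 0.47 (interval -1.10 to 0.86) and -0.40 ± 0.43 (interval -1.31 to 0.51). The opening was thus measured at 1 of the 18 places, and these intervals leave room for smaller changes at its neighbours. The 3 other Lef1 peaks with a GAS match had 0.69 ± 0.36 at 46.1 kb, -0.55 ± 0.69 at 80.5 kb and 1.09 ± 0.68 at 85.0 kb, none of which passed (adjusted p from 0.948 to 1.00, edgeR). At 46.1 kb the IL2 libraries had 10.8, 11.8 and 7.14 CPM and the PBS libraries 3.38, 9.53 and 5.57, which overlap.

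**Figure D2:**
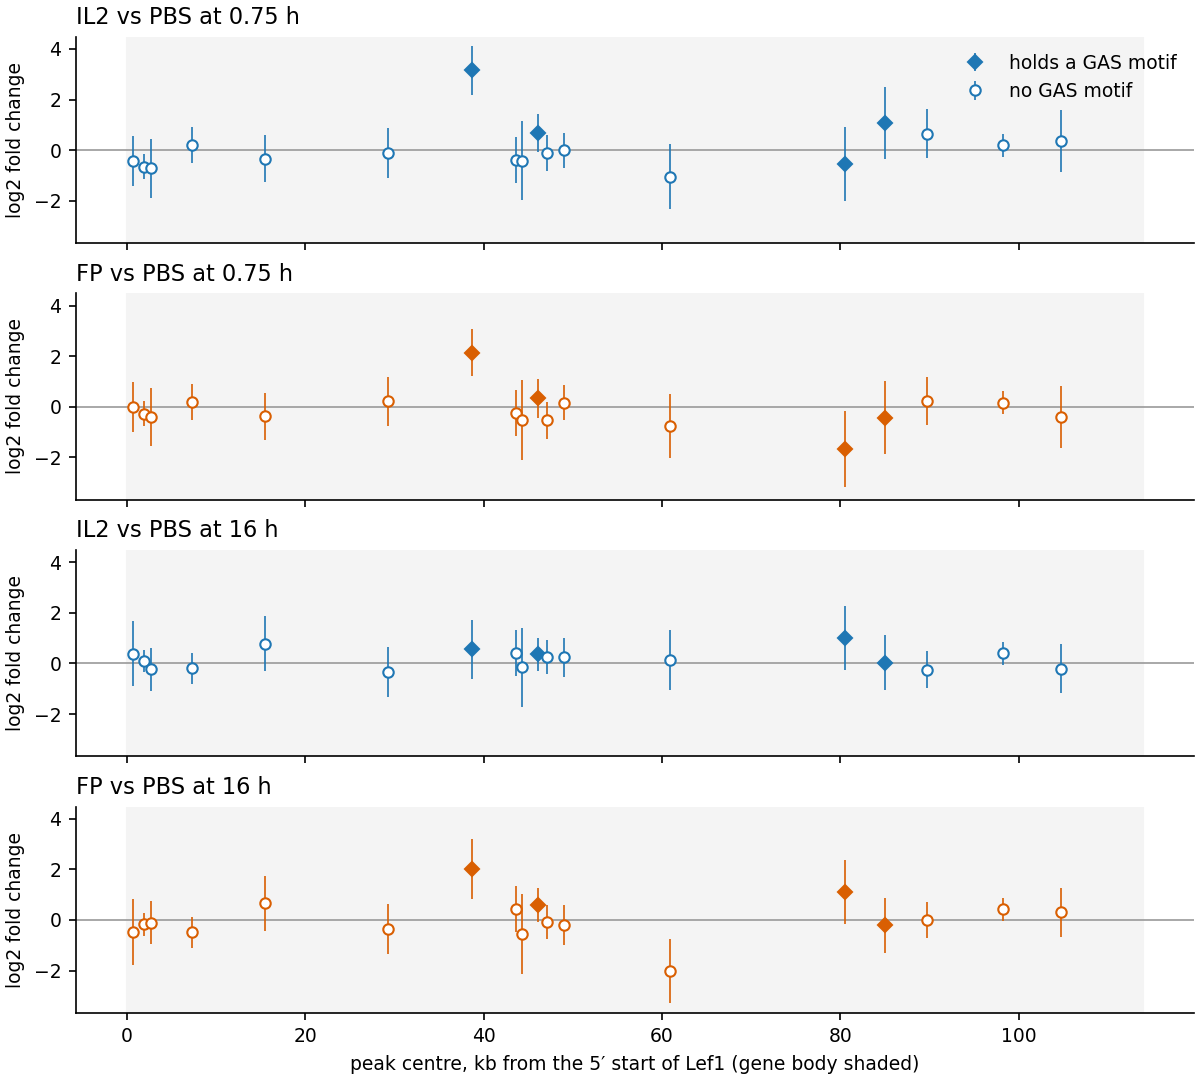
Log2 fold change against PBS of the same time for the 18 Lef1 peaks, by distance of the peak centre from the 5′ start of the gene in kb, with 95% intervals; filled diamonds hold a GAS motif and open circles do not. The peak at 38.7 kb stands at 3.15 with IL2 and 2.14 with FP at 0.75 h, 0.56 with IL2 and 2.01 with FP at 16 h, while its neighbours at 29.3 and 43.6 kb lie between -0.40 and 0.43.

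The most open Lef1 peaks were the intronic peak at 98.2 kb and the promoter peak at 1.90 kb, with 25.2 and 21.1 CPM per kb of peak over all libraries. The promoter peak (chr3:131111907-131112826) overlaps an exon and its UTR and a Lef1 transcription start. With IL2 at 0.75 h its libraries had 13.8, 15.8 and 14.1 CPM. The PBS libraries had 25.1, 23.0 and 21.4 CPM, above all 3 of them. The log2 fold change was -0.66 ± 0.23 (interval -1.15 to -0.17), with an adjusted p of 0.506 by edgeR, so this lower level did not pass. Groups that do not overlap with IL2 on the lower side made up 5.14% of tested peaks at this time. FP libraries had 23.8, 20.2 and 13.2 CPM and overlapped PBS (-0.26).

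The intronic peak at 98.2 kb (chr3:131208203-131209218) had overlapping groups at 0.75 h. Its PBS libraries had 23.6, 21.7 and 16.2 CPM, the IL2 libraries 24.5, 19.2 and 26.4, and the FP libraries 22.5, 21.7 and 23.9. Its largest difference from PBS, 0.42 with FP at 16 h, came from libraries at 23.5, 27.1 and 23.5 CPM against 18.8, 15.2 and 21.4 with PBS, without overlap. The adjusted p was 0.960 by edgeR. With IL2 at 16 h it was 0.40 ± 0.22 (adjusted p = 1.00, edgeR).

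Later, Lef1 peaks lay mostly above PBS without passing the test. At 72 h with FP, 15 of 18 were above 0, with a median of 0.20. The smallest p at 72 h was that of the intronic peak at 47.1 kb (0.70 ± 0.22, adjusted p = 0.930, edgeR). Its FP libraries had 10.7, 10.5 and 12.3 CPM and its PBS libraries 5.39, 6.32 and 8.43, without overlap, as 6.14% of tested peaks had with FP above PBS at 72 h. At 168 h the FP libraries of that peak had 9.08, 4.93, 9.10 and 11.2 CPM and overlapped the PBS libraries at 5.03, 5.08 and 7.00 (0.57 ± 0.30). Leaving out 1 library of 168 h at a time gave 0.41 to 0.74. Another intronic peak, at 60.9 kb, was low in all 3 FP libraries at 16 h, with 0.207, 0.626 and 0.621 CPM. PBS libraries had 1.99, 1.26 and 2.79 CPM there, and the log2 fold change was -2.02 ± 0.62 (adjusted p = 0.423, edgeR; 5.46% of tested peaks had FP below PBS without overlap). It is named after its values were seen.

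Tcf7 encodes TCF1, the family member with the best-known role in T-cell stemness. None of its 6 peaks passed in any comparison. The peak the authors class as promoter and that had the higher level lies at chr11:52275221-52276079, 7.36 kb from the 5′ start, inside a Tcf7 intron in GENCODE and over the start of the transcript A630014C17Rik. Its PBS libraries at 0.75 h had 5.19, 8.32 and 5.42 CPM, the IL2 libraries 2.33, 5.98 and 3.87, and the FP libraries 3.80, 5.87 and 1.81. All 3 groups overlapped. FP minus PBS was -0.70 ± 0.43 (interval -1.61 to 0.21). The peak just upstream of the Tcf7 start was low in every library, with a mean of 1.24 CPM, and had -0.96 with IL2 at 0.75 h.

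The 2 strong Tcf7 intronic peaks, at 14.4 kb and 17.1 kb, had mean levels of 7.58 and 7.71 CPM. At 14.4 kb IL2 at 0.75 h gave 5.31, 6.39 and 3.75 CPM against 6.68, 9.23 and 6.26 with PBS (-0.51 ± 0.34, adjusted p = 1.00, edgeR). At 17.1 kb (chr11:52265579-52266211) FP at 168 h gave 11.7, 11.2, 11.1 and 8.60 CPM. PBS at 168 h gave 7.40, 4.21 and 7.79 CPM, below all 4 FP libraries. The log2 fold change was 0.71 ± 0.27 (interval 0.11 to 1.31), the smallest p among the 38 peaks at 168 h, with an adjusted p of 0.899 by edgeR. Leaving out 1 library at a time gave log2 fold changes of 0.48 to 0.87. Groups with FP above PBS and no overlap made up 3.6% of tested peaks at 168 h. The same peak had 9.30, 14.5 and 17.1 CPM with FP at 72 h and 12.1, 8.90 and 13.7 with PBS, which overlap. With IL2 at 16 h it had 7.76, 7.90 and 8.23 CPM against 7.16, 3.50 and 6.49 with PBS (0.47 ± 0.35). That value turned to -0.70 with the library total as a covariate.

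Satb1 had 7 peaks that the authors class as promoter, 3 of which overlap one another at 1.55 to 1.74 kb and share reads. Another of the 7, at 70.6 kb, lies in a Satb1 intron, 20148 bases from the nearest Satb1 start. The start of the transcript C230085N15Rik is 793 bases from it. None of the 14 Satb1 peaks passed in any comparison. The strongest, at the gene start (chr17:51832176-51833504, 71.3% GC), had 44.3, 8.22 and 35.7 CPM with PBS at 0.75 h. IL2 libraries had 32.1, 11.3 and 33.0 CPM and FP libraries 24.3, 10.8 and 30.0. In each of the 3 groups the library numbered 2 was the lowest, which widens the spread of this peak beyond the differences between treatments (IL2 minus PBS -0.20). With IL2 at 16 h it had 32.4, 38.5 and 55.4 CPM against 29.3, 34.5 and 34.9 with PBS (0.35 ± 0.21, adjusted p = 1.00, edgeR).

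A second Satb1 promoter peak, at 19.4 kb (chr17:51813007-51814794), lies at an alternative start within 210 bases. Both agents gave lower levels there at 0.75 h. PBS libraries had 27.7, 14.0 and 24.0 CPM, IL2 libraries 13.0, 10.3 and 16.7, and FP libraries 15.01, 13.4 and 13.7. PBS replicate 2 overlapped with both. The log2 fold changes were -0.71 ± 0.26 for IL2 (adjusted p = 0.557, edgeR) and -0.62 ± 0.26 for FP (adjusted p = 1.00, edgeR). At 16 h the 3 groups overlapped (IL2 0.13, FP -0.09). The intronic peak at 55.3 kb had the smallest p of Satb1 with FP at 16 h, from libraries at 0.878, 1.10 and 0.759 CPM against 1.32, 2.87 and 1.62 with PBS (-1.07 ± 0.51, adjusted p = 0.934, edgeR). Its Satb1 neighbour at 69.6 kb, the strongest peak outside the promoter class, had 3.45 to 4.03 CPM with FP and 3.35 to 3.85 with PBS at that time.

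At the late times Satb1 and Lef1 peaks lay on opposite sides of 0. At 72 h with FP, 0 of the 14 Satb1 peaks were above 0 and the median was -0.31, against 15 of 18 above 0 for Lef1. Tcf7 had 5 of 6 above 0 with a median of 0.18. Of all tested peaks 53.1% were below 0, with a median of -0.03. At 168 h the counts above 0 were 2 of 14 for Satb1 (median -0.55), 14 of 18 for Lef1 (median 0.28) and 5 of 6 for Tcf7 (median 0.55). No member peak passed at either time by edgeR or DESeq2. Unadjusted p-values under 0.05 numbered 2 of 38 at 72 h and 1 of 38 at 168 h, and edgeR called no peak of the whole table at either time (5236 and 4658 unadjusted). At 72 h the smallest Satb1 p was that of the promoter-class peak at 70.6 kb, with FP libraries at 3.64, 3.67 and 6.02 CPM against 7.56, 5.43 and 8.53 with PBS (-0.73 ± 0.28, adjusted p = 0.930, edgeR). At 168 h the smallest Satb1 p was that of a peak at 1.55 kb, with 2.45, 1.73, 3.57 and 3.85 CPM against 2.93, 4.58 and 6.43 (-0.70 ± 0.38). Leaving out 1 library of 168 h at a time gave -0.92 to -0.40 for it.

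These medians moved with single libraries. Without PBS replicate 3 at 72 h, the deepest library, Satb1 had 4 of 14 peaks above 0 and a median of -0.12. Without PBS replicate 2 at 72 h the Lef1 median was 0.08, and without PBS replicate 3 it was 0.39. The Tcf7 median at 72 h was 0.04 without FP replicate 3, 0.47 without PBS replicate 3, and 0.03 with the library total as a covariate, where 3 of 6 peaks were above 0. At 168 h the Lef1 median was 0.07 without PBS replicate 1, with 10 of 18 above 0, 0.12 without FP replicate 3, 0.44 without FP replicate 2, and 0.05 with the library total as a covariate, with 9 of 18. The Tcf7 median at 168 h was 0.33 without PBS replicate 1 and 0.58 without FP replicate 2. Satb1 at 168 h had 11 to 14 peaks below 0 in each alternative run, of 13 or 14 tested. Promoter and other peaks as classes also parted at these times, with medians over all tested peaks of 0.05 and -0.09 at 72 h and 0.13 and -0.10 at 168 h.

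**Figure D3:**
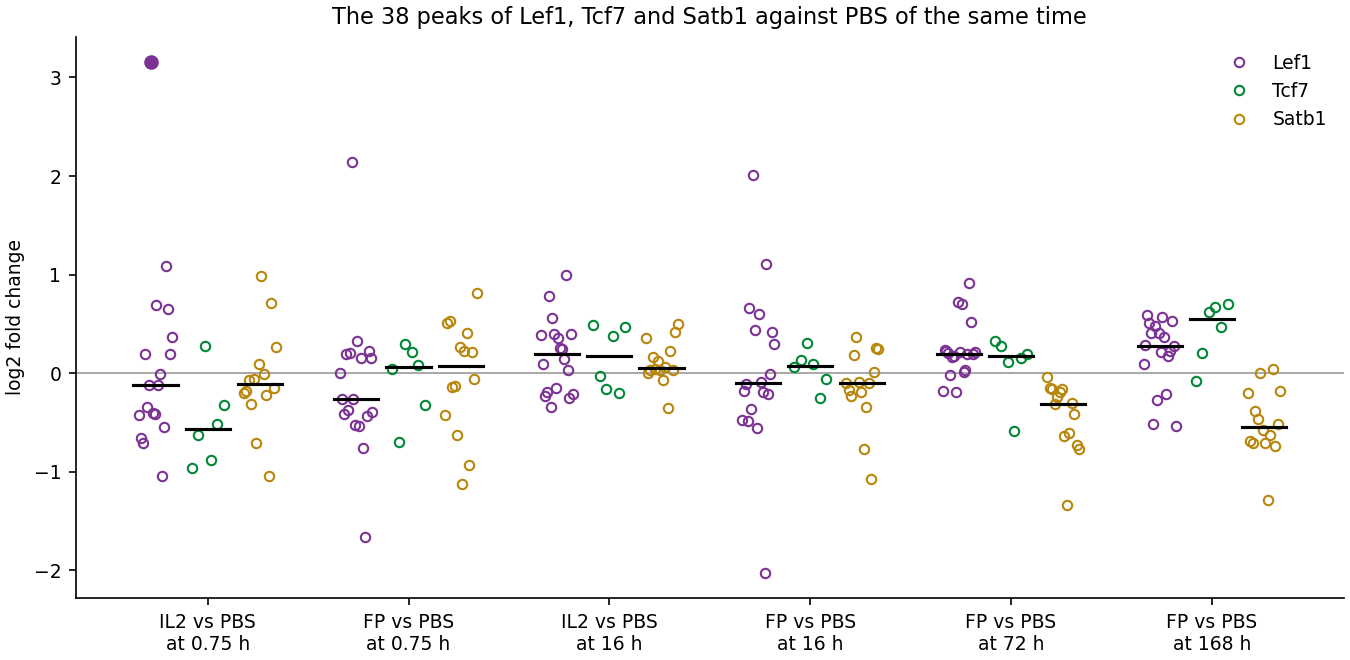
Log2 fold change against PBS of the same time for all 38 peaks, by gene and comparison; the filled point passed an adjusted p of 0.05, open points did not, and black bars are medians per gene. One Lef1 peak stands at 3.15 with IL2 at 0.75 h, and at 72 h all 14 Satb1 peaks lie below 0.

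Over the early comparisons the peaks that the authors class as promoter shared a direction with IL2 at 0.75 h. Of these, the Satb1 peak at 70.6 kb and the Tcf7 peak at 7.36 kb lie far from a start of their gene, at 20148 and 6492 bases. All 11 promoter peaks were below 0, with a median of -0.32 (lowest -0.96, highest -0.05), while 53.5% of all tested promoter peaks were below 0, with a median of -0.03. None of the 11 passed, and 3 of the 11 overlap. An unadjusted p under 0.05 was found for 2 of the 11, beside 951 of 29022 tested promoter peaks. The shared direction did not hold without single libraries: 3 of the 11 were above 0 without PBS replicate 2 (median -0.19), 2 without PBS replicate 1, and 1 without IL2 replicate 1 or IL2 replicate 2. Without PBS replicate 2 the Satb1 peaks as a whole had 8 above and 6 below 0 (median 0.03). The 27 other member peaks had 12 above and 15 below 0. With FP at 0.75 h, 3 of the 11 promoter peaks were above 0 (median -0.14), and at 16 h 9 of 11 were above 0 with IL2 (median 0.09, against 0.07 over all tested promoter peaks, and -0.0043 with 5 of 11 without 1 IL2 library) and 5 of 11 with FP. Counts of members called were 0 of 38 in the comparisons other than IL2 at 0.75 h. The unadjusted counts there were 3 for FP at 0.75 h, 3 for FP minus IL2 at 0.75 h, 0 for IL2 at 16 h, 3 for FP at 16 h and 4 for FP minus IL2 at 16 h. The same counts over all tested peaks, in this order, were 3160 and 3677 of 100468, and 3645, 5350 and 5087 of 100771. Over all tested peaks 0.114% were called for FP at 16 h, all as rises, and 0.141% for FP minus IL2 at 16 h.

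**Figure D4:**
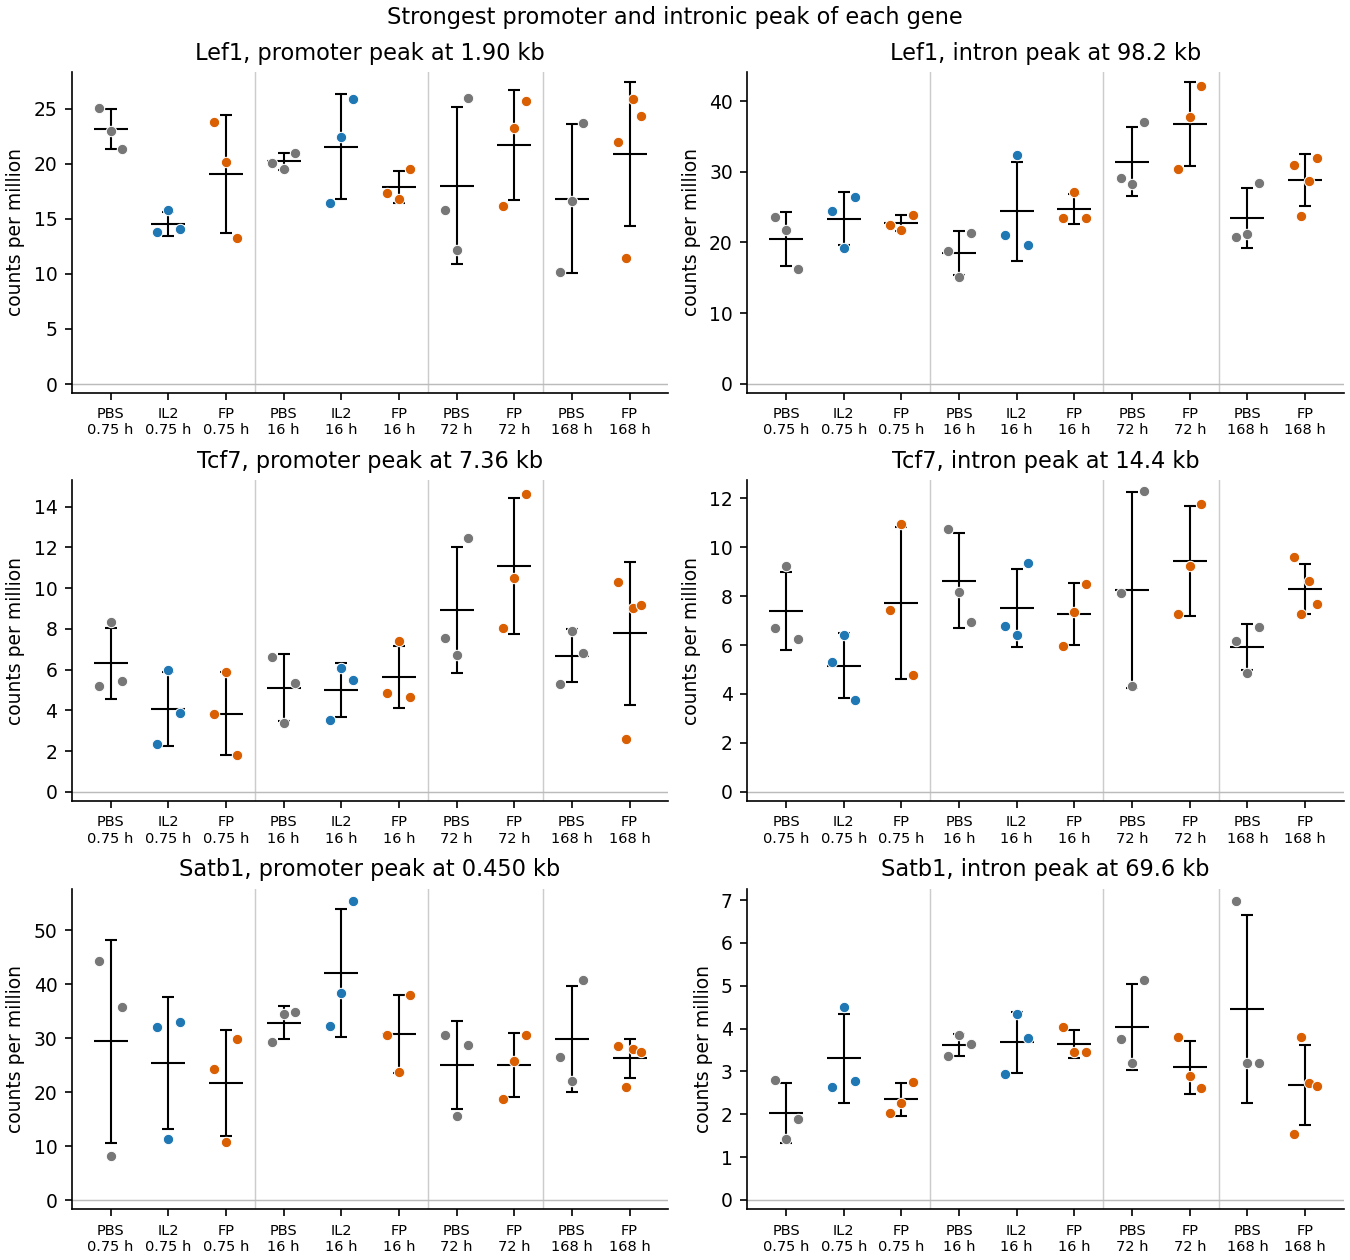
Level in CPM in each library (points) with the group mean and SD (black) for the promoter and the intronic peak of highest mean log2 CPM in each gene, by treatment and hours after injection. The Lef1 promoter peak is lower in the 3 IL2 libraries at 0.75 h (13.8 to 15.8) than in PBS (21.4 to 25.1), and the Satb1 promoter peak has 1 low library in each 0.75 h group.

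Motifs were counted on both strands of every peak, as matching letters only. GAS matches were in 85.3% of the 490 peaks that rose with IL2 at 0.75 h and in 13.8% of tested peaks. Of tested peaks with a match 3.02% rose, and of those without 0.0831%. The 38.7 kb Lef1 peak was thus 1 of 418 rises with a match. TCF/LEF matches (CTTTGAT or CTTTGAA) were in 5 of 18 Lef1, 2 of 6 Tcf7 and 1 of 14 Satb1 peaks, and in 15.4% of all peaks. The 2 Tcf7 peaks with one are its promoter-class peaks. RUNX matches (TGTGGTT) were in 8 of 38 member peaks and AP-1 matches (TGANTCA) in 7 of 38, against 12.3% and 13.2% of all peaks. The 38.7 kb peak held none of the RUNX, AP-1 or forkhead (TGTTTAC) letters.

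Other genes of the same programmes were taken as lists chosen with earlier results of these data known. Of 262 tested peaks near 41 of 47 TCF/LEF partners and WNT genes, none rose or fell with IL2 at 0.75 h (median -0.04), where 0.488% of all tested peaks rose. Of 188 peaks near 17 SATB family members and partners, 1 rose, at Kat2b, which encodes a histone acetyltransferase (2.06 ± 0.34, adjusted p = 0.00624, edgeR). Of 719 peaks near 36 resting T-cell genes 10 rose and none fell, beside the 0.488% that rose over all tested peaks, with a median of 0.04. Among them were peaks at Foxp1, Klf3 and Bach2, which encode transcription factors of quiescent lymphocytes, at Ccr7, which encodes a chemokine receptor, and at Tox, which encodes another nuclear factor. The 5 Foxp1 peaks overlap one another, so they are 1 region. The Ccr7 peak had 2.47 ± 0.40 (adjusted p = 0.00624, edgeR) and the Klf3 peak 2.33 ± 0.37 (adjusted p = 0.00467, edgeR), both below the 3.15 of Lef1. With FP at 0.75 h none of the 1145 peaks of the 3 lists was called, where 0.00199% of all tested peaks rose. An unadjusted p under 0.05 was found for 59 of the 1145, beside 3160 of all 100468 tested peaks. Among 160 peaks near 7 STAT5 targets, kept as a reference, 9 rose with IL2 at 0.75 h, 1 with FP at 0.75 h and 3 with FP at 16 h, where 0.488%, 0.00199% and 0.114% of all tested peaks rose.

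The peaks whose levels most resembled the Lef1 peak over the 31 libraries were found among 53643 candidates more than 100 kb away. Levels were taken as log2 CPM minus the mean of the PBS libraries of the same time. Pearson r was 0.88 near Gm20750, 0.86 near Sema4d, 0.85 near Kif3b, 0.85 near Cobll1 and 0.85 near Gm30034. The Sema4d peak (chr13:51776128-51776788) rose by 3.04 with IL2 at 0.75 h (adjusted p = 0.000290, edgeR), close to the 3.15 of Lef1, and the Kif3b peak by 1.75 (adjusted p = 0.0223, edgeR). The Gm20750 peak had 0.72 and did not pass (adjusted p = 0.955, edgeR). For the Satb1 gene-start peak the nearest were other promoters, first that near Lonrf1 (r = 0.90). These correlations describe libraries that share batches by time and within each time are measured from the same PBS mean, so they carry no test.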

How the data were processed

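ATAC-seq peak counts of 31 libraries of sorted mouse spleen Tregs were analysed. Per the submitters' processing notes and design text, the authors aligned reads with BWA (bwa-mem) to GRCm38/mm10, called peaks with MACS2 2.1.2 and filtered them by IDR, a measure of how well peaks repeat, on 2 pseudo-replicates made from each sample. The authors tested with DESeq2, per the design text. The deposited table holds whole-number counts per peak. Commas in gene names occur in 9561 peak names, so each row was read from its right end. No count column was left without a group. For the read counter, duplicate filter, Tn5 offset and joining of the 2 technical replicates per sample, the method is not given in the sources used here.

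Columns of 16 h match a group but no single sample, so those libraries carry no number. Counts were fitted in edgeR 4.0.16 (R 4.3.3) per time point, with TMM scaling, filterByExpr (minimum count 10, total 15), the quasi-likelihood test and Benjamini-Hochberg adjustment over all tested peaks at 0.05; all 38 members were tested in every comparison. In deviations from the group mean, the 3 same-numbered pairs of IL2 and PBS at 0.75 h correlated at 0.1365 to 0.3851, all above 0.1, so the numbers were taken as pairing those libraries; no label says what a number marks. Differences between times came from 1 fit of 31 libraries. CPM values use the TMM scaling of all 31 libraries. DESeq2 1.42.0, other scalings, no filter, only the 2 groups compared, a library-total covariate, a replicate block and leaving out each library were alternatives. On simulated data the test recovered 62% of 4-fold and 4% of 2-fold changes for IL2 against PBS at 0.75 h (49% and 4% for FP at 168 h). Changes were put only into peaks with an average log2 CPM above 1. These shares therefore do not cover lower member peaks, such as the Tcf7 peak at 9.26 kb (mean 0.457 CPM). The biological coefficient of variation was 38.6 to 48.0%. Each time has its own date in the labels, so time and batch cannot be told apart.

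Peaks named by rule are those that passed, the promoter and the other peak of highest mean log2 CPM per gene, and the peak of smallest p per gene and PBS comparison. Some others, such as neighbours of the Lef1 peak and peaks with a GAS match, are given beside them. Members and lists were chosen with earlier results of these data known. Positions and sequences come from GRCm38.p6 and GENCODE M21.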

Additional observations from a re-analysis of the deposited data

Results flagged for a closer look

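Among 38 groups of 4 libraries tested, 1 library stood far from the other 3 in 4 peaks, all in FP at 168 h, the only group with 4 libraries. Chance flags about 1 in 20 such groups. FP replicate 2, at 12316912 counts the shallowest library of its group, had 0.865 CPM in the Lef1 intronic peak at 105 kb, 20.9 CPM in the Satb1 promoter peak at the gene start and 2.59 CPM in the Tcf7 promoter-class peak at 7.36 kb. It was the lowest of the 4 in each, and the other 3 lay between 1.77 and 1.90 CPM, between 27.5 and 28.6 CPM and between 9.05 and 10.3 CPM. FP replicate 3 had 2.75 CPM in the Lef1 peak at 29.3 kb, above 1.15, 1.30 and 1.40 CPM. The part of depth in these values was not tested.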

How the results depend on the processing

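The call of the Lef1 peak at 38.7 kb with IL2 at 0.75 h held under each alternative run, with log2 fold changes of 3.15 to 3.27 and, leaving out 1 library at a time, 2.76 to 3.70. With FP at 0.75 h, 0 member peaks passed by edgeR, but 1, this same peak, passed with DESeq2 (2.14) and with the replicate block (2.21, adjusted p = 0.0280). Beyond IL2 and PBS at 0.75 h, not every same-numbered pair correlated above 0.1 in its deviations: the pairs ran from 0.0010 to 0.4049 for FP and PBS and from 0.0108 to 0.3011 for FP and IL2 at 0.75 h, from -0.2125 to 0.6178 at 72 h and from -0.1950 to 0.4404 at 168 h. Over all 9 same-numbered pairs of 0.75 h the mean was 0.2026, against -0.1019 for the 18 others. Deviations within a group sum to 0, so the mean of the others largely follows from the same-numbered pairs and is no separate evidence. The block changed no other call of a named peak, and no block could be fitted at 16 h, where columns carry no number. The remaining counts of members called, 197 values over all alternatives, were classed as unchanged by a limit of 1.5 times. In every comparison but IL2 at 0.75 h the reported count was 0. Where few or no peaks of the whole table were called, such a count had little room to change. This agreement therefore carries little weight. With the library total as a covariate the Lef1 peak with IL2 at 16 h turned to -0.86 and the Tcf7 peak at 17.1 kb with IL2 at 16 h to -0.70. Leaving out 1 library took the Lef1 peak from 0.077 to 1.43 with IL2 at 16 h, from 1.53 to 2.88 with FP at 16 h, from -0.0217 to 0.315 with FP at 72 h, from -0.0016 to 1.52 with FP at 168 h, from -0.66 to 0.75 for the FP effect at 16 h minus 0.75 h, and from -0.10 to 1.15 for the FP effect at 168 h minus 72 h, none of them past the threshold. The cause of these shifts was not tested. Depth limits the low peaks most: 6 values of the 38 peaks over 31 libraries were counts of 0, which allow 0.116 to 0.419 CPM.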
